A study of Mus musculus with 38 samples.

Results

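Transcripts of 6 macrophage genes were followed across mouse liver: C1qa, C1qb and C1qc, which encode the chains of complement C1q, Clec4f, a lectin of Kupffer cells, and Ctss and Lyz2, which macrophages of many tissues express. The genes were listed by name, with earlier results of these data known. All 6 were among the 10547 genes of the count table, and each was read in all 38 segments. The question was how the Kupffer cell transcript Clec4f and the general macrophage transcripts compared by location in the liver, by diet and by genotype.

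Kupffer cells are the resident macrophages of the liver sinusoids. In the mouse they carry CLEC4F, a C-type lectin that binds glycans, and monocytes that settle in an emptied sinusoidal niche can acquire it. C1q is the recognition molecule of the classical complement pathway. It is assembled from the products of C1qa, C1qb and C1qc, and unlike most complement proteins, which hepatocytes secrete, it is made chiefly by macrophages. Ctss encodes cathepsin S, a lysosomal cysteine protease that trims the invariant chain of class II antigen presentation, and Lyz2 encodes lysozyme M, an antibacterial enzyme of monocytes, macrophages and neutrophils. A diet with 3,5-diethoxycarbonyl-1,4-dihydrocollidine (DDC) obstructs small bile ducts and is used as a model of cholestasis with a ductular reaction around the portal tracts.

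The segments came from formalin-fixed liver of WT and Trail.mye mice, matched for age and sex, on a control (CON) or a DDC diet. The diets were given in rounds of 5 days, with 3 days of chow between rounds, over 21 days, and the mice were killed on day 22. Trail.mye mice lack the death ligand TRAIL in myeloid cells, by Cre recombinase expressed from the Lyz2 locus in mice with a floxed Tnfsf10 gene. The Cre allele interrupts Lyz2, and the number of its copies per mouse is not given, so for Lyz2 the genotype and the allele cannot be told apart. Tnfsf10 itself was not analysed here. On the GeoMx platform, barcoded probes were released by light from areas drawn on the tissue, here regions of interest (ROIs) around the ductular reaction (periportal) or in the parenchyma, and each ROI was divided by antibodies to pan-cytokeratin (PanCK, bile duct cells) and IBA1 (macrophages).

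There were 16 periportal PanCK+ segments (3 WT CON, 4 WT DDC, 4 Trail.mye CON, 5 Trail.mye DDC), 15 periportal IBA1+ segments (2, 4, 4 and 5 in the same order) and 7 parenchymal IBA1+ segments (1, 2, 2 and 2). The mouse, section and slide of a segment are not given, so segments of a group can share an animal and every p-value below is too small to stand for animals. Total counts ranged from 20319 to 836971 per segment. The lowest value of the count table is 1, and 27.2% of its values lie there. Levels are given as Q3-normalized counts, which are counts times 1 factor per segment that brings the 75th percentile of every segment to 10.5, so 1 count stands for 0.131 to 5.25 Q3-normalized counts. In WT periportal IBA1+ segments 57.7 to 70.3% of values were at 1 on control diet and 45.6 to 69.9% on DDC. In Trail.mye mice it was 0.313 to 13.1% and 0 to 1.97%. For both WT control segments and DDC ROIs 007, 009 and 011 of that class, 1 count stood for 5.25. Their 75th percentile thus lay near the floor, and their factors and levels are coarse. In ROI 035 of the Trail.mye DDC group no gene was below 22 counts in the PanCK+ or below 14 counts in the IBA1+ segment. Marker levels followed the labels. Krt19, a keratin of bile duct cells, had a median of 15.8 (CON) and 51.6 (DDC) in PanCK+ and of 5.25 on either diet in periportal IBA1+ segments, and Aif1, which encodes IBA1, of 20.7 (CON) and 11.7 (DDC) in periportal IBA1+ and 5.25 and 7.35 in PanCK+ segments. Lyz1, a close paralog, could share probe signal with Lyz2. Levels of different genes rest on different probes and are not compared with each other.

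The C1q genes lie side by side on chromosome 4, with no other annotated gene in the 18.7 kb from C1qb (136880126 to 136886200) over C1qc (136889801 to 136892936) to C1qa (136895916 to 136898844). Clec4f lies on chromosome 6 (83644542 to 83656116), Ctss on chromosome 3 (95526786 to 95556405) and Lyz2 on chromosome 10 (117277541 to 117282272), all in RefSeq coordinates of GRCm38.p6. Because C1q and Clec4f parted on the DDC diet, as described below, the 250 bases before the start are shown for 2 C1q genes and Clec4f, with GAGGAA, the core of the site bound by the myeloid factor PU.1, in capitals on either strand (TTCCTC on the other). The windows are chr4:136886201-136886450, chr4:136892915-136893164 and chr6:83656117-83656366, all on the minus strand and written in the direction of the gene. The start is that of the transcript in the promoter table, which for C1qc lies inside the gene span given above, close to its end.
C1qb: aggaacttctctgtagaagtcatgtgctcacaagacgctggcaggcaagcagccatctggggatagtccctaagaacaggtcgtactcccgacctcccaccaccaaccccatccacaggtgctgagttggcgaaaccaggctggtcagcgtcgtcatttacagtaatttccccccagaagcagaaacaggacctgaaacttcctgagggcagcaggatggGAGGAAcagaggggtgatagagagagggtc
C1qc: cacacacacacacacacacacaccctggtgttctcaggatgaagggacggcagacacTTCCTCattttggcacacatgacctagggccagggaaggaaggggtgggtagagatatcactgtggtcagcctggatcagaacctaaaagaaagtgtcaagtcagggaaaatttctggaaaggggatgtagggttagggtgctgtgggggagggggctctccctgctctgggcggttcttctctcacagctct
Clec4f: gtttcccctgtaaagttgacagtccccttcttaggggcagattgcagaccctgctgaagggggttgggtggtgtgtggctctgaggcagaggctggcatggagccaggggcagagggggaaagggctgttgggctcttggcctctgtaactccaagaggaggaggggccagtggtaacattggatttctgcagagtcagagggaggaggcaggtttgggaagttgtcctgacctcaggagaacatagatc

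The motif stood 30 to 25 bases before the C1qb start, and on the opposite strand 193 to 188 bases before the start of that C1qc transcript. The Clec4f window did not hold these letters. Of the 5 members with a RefSeq promoter in the table, 3 held the motif (C1qb, C1qc and Ctss) and Clec4f and Lyz2 did not, against 25.9% of all 27025 gene symbols. A match of 6 letters is a description of the sequence and shows no binding, and a link of the motif to the diet results was not tested.

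All 6 transcripts were higher in IBA1+ segments than in the PanCK+ segments of the same ROIs, by 3.75 to 6.89 times. Among the 15 periportal ROIs that held both segments, C1qa, C1qb, C1qc and Ctss were higher on the IBA1+ side in 15 of 15, and Clec4f and Lyz2 in 13 of 15. C1qc was 6.89-fold lower in PanCK+ segments (log2 fold change -2.79, standard error (SE) 0.18, adjusted p = 8.29e-21 in edgeR's quasi-likelihood test with ROI as a block). Clec4f was 4.26-fold lower (-2.09, SE 0.25, adjusted p = 2.2e-10) and Lyz2 3.75-fold lower (-1.91, SE 0.18, adjusted p = 2.83e-14). All 6 of 6 members passed the test, where 17.8% of all genes did. IBA1 was the antibody that outlined the segments, so this comparison checks the label and is no finding about location.

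The ratio of the sides was lower in DDC than in control ROIs for Clec4f, and also for the C1q genes and Ctss. In the 6 control ROIs the IBA1+ level of Clec4f was 8.63 to 41 times the PanCK+ level, with a median of 17.3. The PanCK+ value was a single count, the lowest value of the table, in ROIs 003, 005 and 029, so their ratios of 41, 21 and 34.4 are set by that floor, and in the other 3 control ROIs it was 3 or 4 counts. In the 9 DDC ROIs the ratio ran from 0.4 to 6.79 with a median of 1.43, and in ROIs 007 and 011, both WT, Clec4f was lower on the IBA1+ side, where it stood at 1 count. For C1qb the ratio was 9.29 to 38 in control and 2.36 to 6.85 in DDC ROIs. The median ratio went from 12.3 in control to 4.24 in DDC ROIs for C1qa and from 23 to 5.59 for C1qb. It went from 17.9 to 5.74 for C1qc and from 7.88 to 4.77 for Ctss. The control ratios divide by few PanCK+ counts here too, and the PanCK+ level was higher on DDC. For Lyz2 the median ratio was 2.38 in control and 6.25 in DDC ROIs, but the control ROIs held 1 or 2 counts on the PanCK+ and 1 to 9 counts on the IBA1+ side, so no direction is read from it. These ratios are a description, and their difference between diets was not tested.

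**Figure D1:**
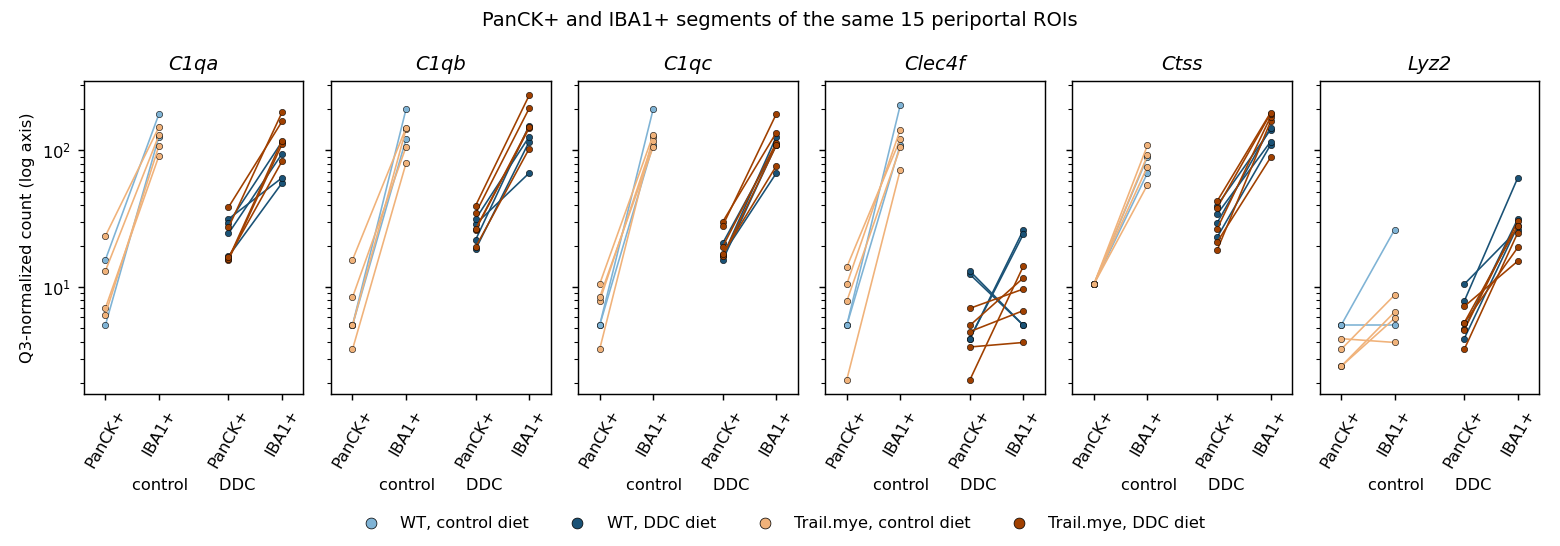
Q3-normalized counts (log axis) of the 6 genes in the PanCK+ and IBA1+ segment of each of 15 periportal ROIs, joined by a line per ROI, with control diet on the left and DDC on the right of each panel and colours for genotype and diet. The lines of the C1q genes and Ctss rise in every ROI. Their median rise for C1qa, C1qb, C1qc and Ctss is 12.3, 23, 17.9 and 7.88 times on control diet. On DDC it is 4.24, 5.59, 5.74 and 4.77 times. Those of Clec4f rise 8.63 to 41 times on control diet, where 3 of the 6 PanCK+ values are single counts at the floor of the table. On DDC the median rise of Clec4f is 1.43 times.

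In periportal IBA1+ segments Clec4f was lower on the DDC diet than on control diet, by 10-fold in WT and by 12.2-fold in Trail.mye mice. In WT mice its Q3-normalized count was 215 and 110 on control diet, and 5.25, 26.3, 5.25 and 24.5 on DDC. The 2 values of 5.25 among the DDC segments, in ROIs 007 and 011, are single counts. Every control segment lay above every DDC segment. Clec4f fell by 3.33 on the log2 scale (SE 0.53, 10-fold, adjusted p = 3.81e-05 in edgeR's quasi-likelihood test). It was the 1 member of 6 that passed the test in this comparison, where 1.19% of all genes did.

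In Trail.mye mice Clec4f stood at 121, 105, 142 and 72.2 in the control segments and at 11.7, 9.7, 3.94, 6.74 and 14.3 in the DDC segments. The groups again did not overlap, and the highest DDC value of 14.3 lay well under the lowest control value of 72.2. The fall was 3.61 on the log2 scale (SE 0.34, 12.2-fold, adjusted p = 6.83e-12). Clec4f, Ctss and Lyz2, 3 of the 6 members, passed the test in this comparison, where 9.38% of all genes did. A difference of the Clec4f fall between genotypes was not called (difference -0.28, SE 0.65, adjusted p = 1), and 0 of 6 members passed the test of that difference, against 0.0569% of all genes (203 genes at an unadjusted p under 0.05).

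In these segments fewer Kupffer cells and less Clec4f RNA per cell cannot be told apart. Hepatocyte transcripts moved with Clec4f. The summed Q3-normalized count of the 9 hepatocyte markers measured was 9165 to 14309 in the 6 periportal IBA1+ control segments and 1143 to 4911 in the 9 DDC segments. All 9 of 9 hepatocyte markers fell in Trail.mye mice and 8 of 9 in WT mice, with Fabp1, a fatty acid binding protein, at -5.34 and -4.16 on the log2 scale. Fibroblast and stellate cell markers went from a sum of 63 to 247 up to 638 to 1563, and cholangiocyte markers from 41 to 58 up to 118 to 385. Of the 10 cholangiocyte markers only 1 was called higher in WT and 2 in Trail.mye mice, with median log2 fold changes of 0.4 and 0.39. All 10 were at their bound in WT mice. Spp1 is on this list and also on that of monocyte-derived macrophages, so the sum does not stand for bile duct cells alone. The part of hepatocytes, fibroblasts, stellate cells and cholangiocytes in the Clec4f result was not tested. In the 2 parenchymal Trail.mye DDC segments the hepatocyte sum was 3869 and 5717, and Clec4f stood at 109 and 81.4.

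**Figure D2:**
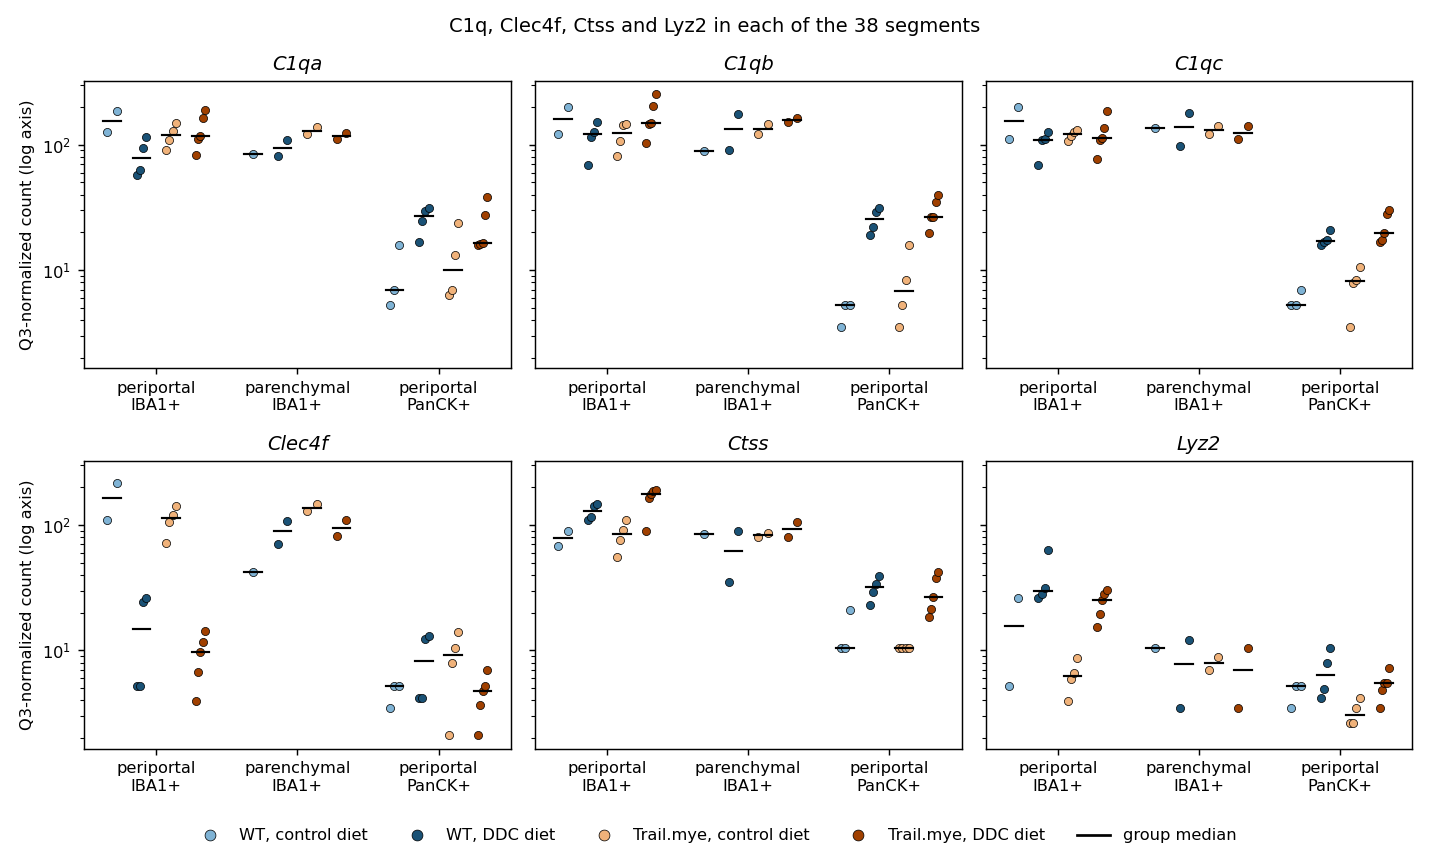
Q3-normalized counts (log axis) of the 6 genes in each of the 38 segments, by segment class, with a point per segment, colours for genotype and diet and a bar at the group median. In periportal IBA1+ segments Clec4f lies at 72.2 to 215 on control diet and at 3.94 to 26.3 on DDC, and the C1q genes overlap between diets in Trail.mye mice.

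None of the C1q transcripts was called by diet in periportal IBA1+ segments. In Trail.mye mice C1qa stood at 91, 129, 148 and 108 on control diet and at 111, 118, 163, 83.4 and 190 on DDC. C1qc stood at 126, 117, 130 and 106 on control diet and at 114, 109, 135, 77.1 and 185 on DDC. The diets overlapped in all 3 C1q genes, and their log2 fold changes were 0.15 for C1qa (SE 0.3), 0.51 for C1qb (0.31) and 0.04 for C1qc (0.3), with adjusted p of 0.383 to 0.992. In WT mice C1qa stood at 184 and 126 on control diet and at 94.5, 57.8, 63 and 116 on DDC, with no overlap of the diets, and C1qb and C1qc overlapped. The WT log2 fold changes were -0.88 for C1qa (SE 0.45), -0.47 for C1qb (0.46) and -0.58 for C1qc (0.44), none called (adjusted p = 0.938 each). The median change of all genes in that WT comparison was -0.16 with upper-quartile factors and -0.03 with TMM factors.

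Ctss and Lyz2 were higher on DDC in periportal IBA1+ segments of Trail.mye mice. Lyz2 stood at 8.75, 6.57, 5.91 and 3.94 in control segments and at 30.3, 25, 28.2, 15.5 and 19.5 in DDC segments, and the groups did not overlap. It rose by 1.9 on the log2 scale (SE 0.34, 3.73-fold, adjusted p = 3.68e-05). The control values are only 3 to 9 counts, against 26 to 78 counts on DDC. Total counts were 80722 to 220382 on control diet and 158220 to 568720 on DDC. Lyz2 was called in 16 of 17 alternative settings, but not with all segments thinned to 1 total (adjusted p = 0.41 in edgeR's quasi-likelihood test). Ctss stood at 56, 91.9, 109 and 76.2 on control diet and at 163, 176, 186, 88.8 and 189 on DDC, where the value of 88.8 in ROI 035 overlapped the controls. Its rise of 0.93 (SE 0.31, adjusted p = 0.0432) lay close to the threshold. It was called in 5 of 17 alternative settings, with adjusted p from 0.00177 to 0.311, and was lost when any 1 of the 9 segments other than control ROI 028 or DDC ROI 035 was left out.

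In WT mice the same 2 transcripts were not called. Ctss stood at 89.3 and 68.3 on control diet and at 142, 110, 116 and 147 on DDC, so that all 4 DDC segments lay above both controls (log2 fold change 0.71, SE 0.48, adjusted p = 0.938). Lyz2 stood at 26.3 and 5.25 on control diet, the latter a single count, and at 31.5, 26.3, 63 and 28 on DDC (1.2, SE 0.63, adjusted p = 0.938). Neutrophils express Lyz2 too. In Trail.mye mice the summed level of the 7 neutrophil markers measured went with it, from 36.8 to 57.8 on control diet to 85.5 to 133 on DDC. In WT mice the sum was 36.8 and 68.3 on control diet and 63 to 168 on DDC, which overlap. There 3 of the 7 were at 1 count in every control segment, and 6 held fewer than 3 counts in every segment of a diet. The WT control sums thus lie near the floor of the table. Of the 7 markers 2 were called higher in Trail.mye and 1 in WT mice. In parenchymal segments the neutrophil sum was 33.3 to 49.8 on control diet and 84 to 99.8 on DDC, while Lyz2 was at 7 to 10.5 and 3.5 to 12. The part of neutrophils in the Lyz2 result was not tested. Differences of the Ctss and Lyz2 diet effects between genotypes were not called (differences 0.21 and 0.69, SEs 0.56 and 0.77, adjusted p = 1 each). The WT control group held 2 segments, with 26380 and 35208 counts.

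**Figure D3:**
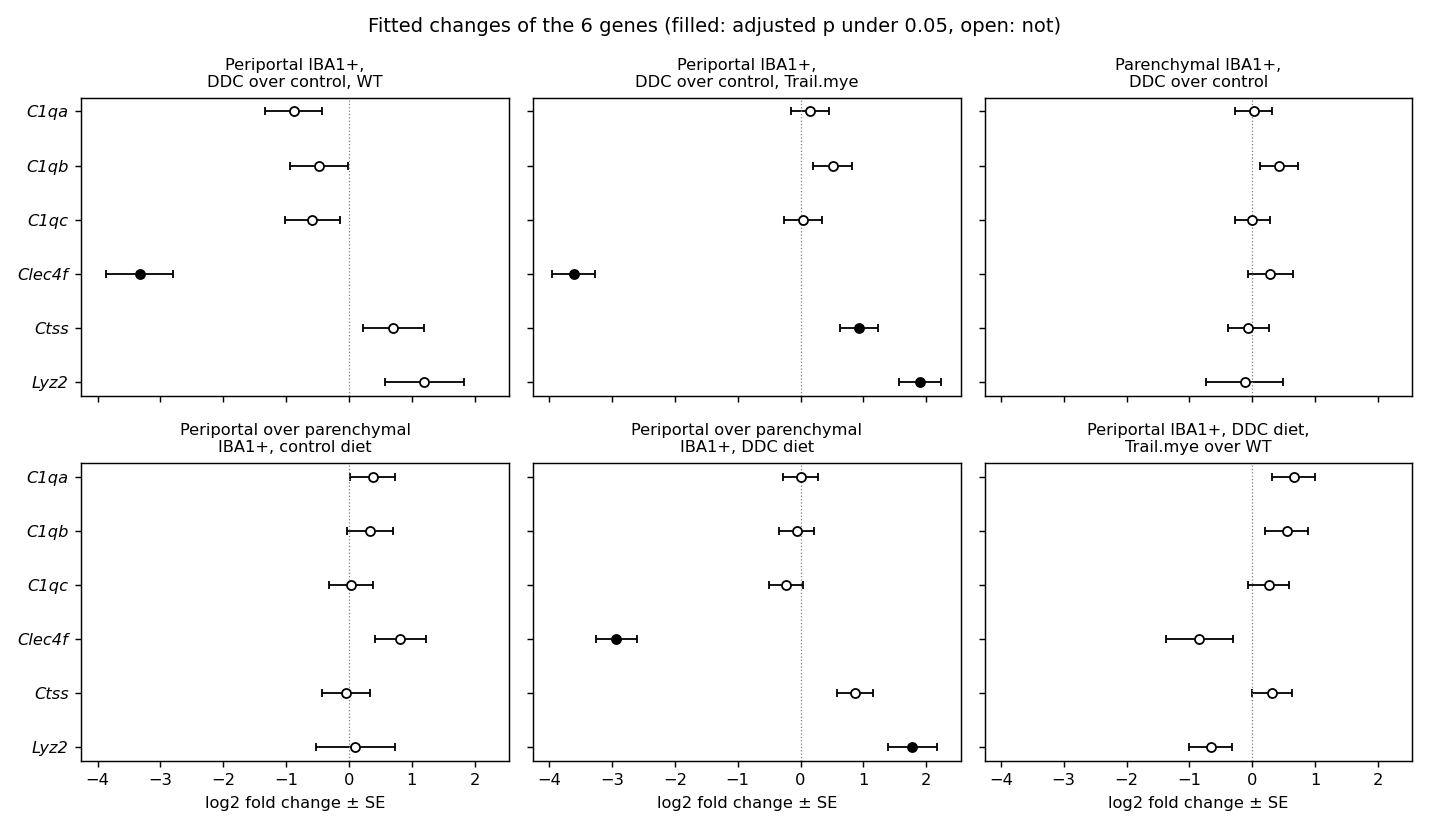
Log2 fold changes with standard errors from edgeR's fit for the 6 genes in 6 comparisons of IBA1+ segments, with filled points for an adjusted p under 0.05. Clec4f is filled and negative in both periportal diet comparisons (-3.33 and -3.61) and in the DDC location comparison (-2.93), and open in the parenchymal diet comparison (0.29).

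A ratio within a segment is not changed by the scaling of the segment. Relative to the geometric mean of the 3 C1q genes, Clec4f had a ratio of 0.676 to 1.24 in the 6 periportal IBA1+ control segments (median 0.968). In the 9 DDC segments the ratio was 0.024 to 0.278 (median 0.0773), below all controls. In parenchymal IBA1+ segments it was 0.417, 1.03 and 1.06 on control diet and 0.648, 0.719, 0.782 and 0.791 on DDC. Ctss relative to C1q went the other way in periportal segments, from 0.46 to 0.771 on control diet to 0.913 to 1.48 on DDC, again without overlap, and so did Lyz2, from a median of 0.0475 to one of 0.24, with ranges that overlapped. The ratios depend on the probes, so only their change between groups carries a meaning, and they are given as a description with no test.

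**Figure D4:**
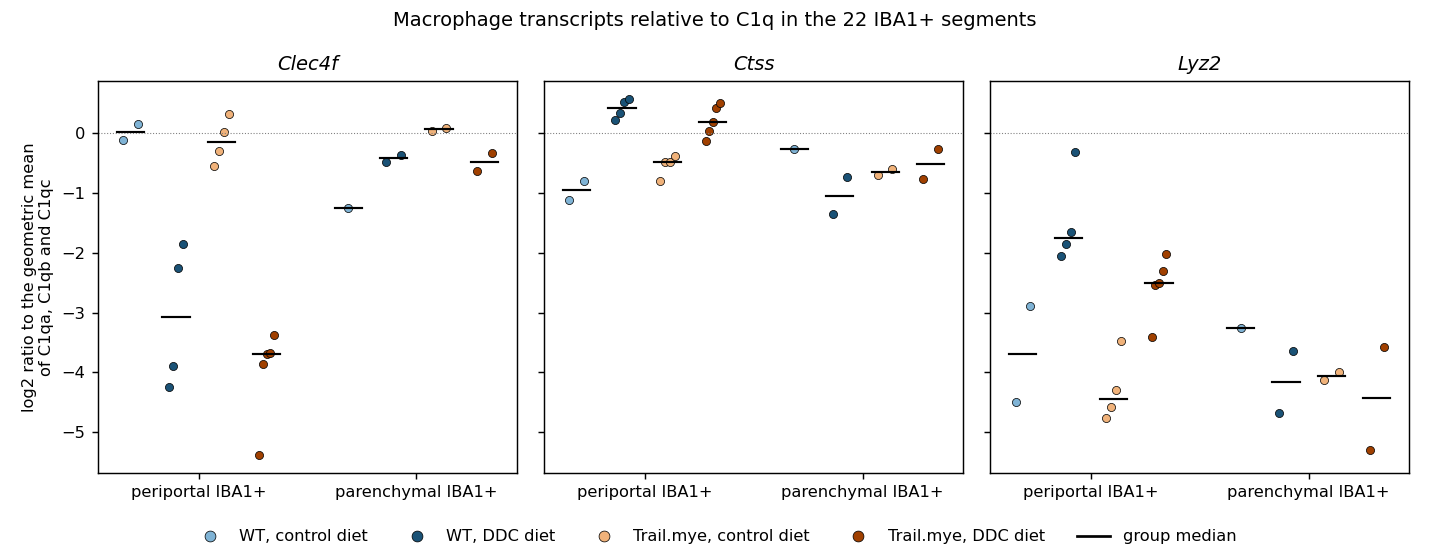
Log2 ratio of Clec4f, Ctss and Lyz2 to the geometric mean of C1qa, C1qb and C1qc in the 22 IBA1+ segments, with a point per segment, colours for genotype and diet and a bar at the group median. The periportal DDC segments lie below all periportal controls for Clec4f (mean log2 ratio -3.58 against -0.08) and above them for Ctss (0.29 against -0.68).

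On control diet none of the 6 transcripts was called by location. Clec4f was at 72.2 to 215 with a median of 116 in the 6 periportal IBA1+ segments and at 42, 129 and 146 in the 3 parenchymal ones, where the WT segment was the low one. In a fit of all 22 IBA1+ segments its log2 fold change, periportal over parenchymal, was 0.82 (SE 0.41, adjusted p = 1 in edgeR's quasi-likelihood test). C1qa (0.38), C1qb (0.34), C1qc (0.03), Ctss (-0.04) and Lyz2 (0.1) had SEs of 0.35 to 0.63. None of the 6 members passed the test (0 of 6, with Clec4f at an unadjusted p of 0.0478), where 0.0569% of all genes did.

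On the DDC diet the locations parted. Clec4f was at 3.94 to 26.3 (median 9.7) in the 9 periportal IBA1+ segments and at 70, 108, 109 and 81.4 in the 4 parenchymal ones, with no overlap. It was 7.65-fold lower in periportal segments (log2 fold change -2.93, SE 0.32, adjusted p = 6.44e-10). Lyz2 was at 15.5 to 63 (median 28) against 3.5, 12, 3.5 and 10.5, where both values of 3.5 are single counts, and was 3.43-fold higher (1.78, SE 0.39, adjusted p = 0.00158). Without the parenchymal WT segment of ROI 012 the log2 fold change was 2.47. Ctss was at 88.8 to 189 (median 147) against 35, 90, 80.5 and 105, a log2 fold change of 0.87 (SE 0.29) that was not called (adjusted p = 0.0875), though it was in 5 of 21 alternatives. The C1q genes had log2 fold changes of 0, -0.06 and -0.23 with SEs of 0.27 to 0.28. So 2 of 6 members passed the test, against 3.24% of all genes, whose median change was 0.19. Hepatocyte markers were lower too in the periportal segments, 9 of 9 called, with a median of -1.47, and fibroblast and stellate cell markers higher, 5 of 10 called, with a median of 1.47 and sums of 638 to 1563 against 126 to 245. The part of these cells in the Clec4f and Lyz2 results was not tested.

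Tested directly, the location effect on Clec4f differed between diets by -3.75 on the log2 scale (SE 0.53, adjusted p = 1.09e-05). It was the 1 of 6 members that passed this test, where 0.0284% of all genes did (3 of 10547). Another of those 3 was Cd5l, a scavenger receptor family protein of Kupffer cells, at -2.82 (SE 0.49, adjusted p = 0.00152). For Lyz2 the difference was 1.68 (SE 0.82, adjusted p = 1) and for Ctss 0.91 (0.47, adjusted p = 1). Of the 9 hepatocyte markers 0 were called in it, with 8 below 0 and adjusted p from 0.212 to 1, led by Apoc3, an apolipoprotein (-1.78). The location and diet comparisons share their periportal IBA1+ segments, so they are not separate evidence.

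In parenchymal IBA1+ segments none of the 6 transcripts was called by diet. Clec4f stood at 42 in the WT control segment and at 70 and 108 on DDC, and in Trail.mye mice at 129 and 146 on control diet and at 109 and 81.4 on DDC. The DDC values were the higher ones in WT and the lower ones in Trail.mye mice, on 1 to 2 segments each, and the mean log2 fold change was 0.29 (SE 0.36, adjusted p = 0.999). C1qa, C1qb and C1qc had changes of 0.02, 0.43 and 0, with SEs of 0.28 to 0.3. Lyz2 held 1 to 16 counts in these 7 segments, so its change was known only to 0.61 (SE). No member passed the test (0 of 6, none of them under an unadjusted p of 0.05), against 0.91% of all genes. Between genotypes 0 of 6 passed, against 0.247% of all genes, with Clec4f at 0.86 (SE 0.35, unadjusted p = 0.0153, adjusted p = 0.888). With a filter on low counts Clec4f and C1qa were called there. Depth was uneven, with 252265 and 265759 counts in the Trail.mye control and 33832 to 106664 in the other segments.

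In PanCK+ segments C1qb, C1qc and Ctss were higher on DDC in Trail.mye mice, and no member was called in WT mice. C1qb was at 1 count in all 3 WT control segments and stood at 22.2, 18.9, 28.9 and 31.5 on DDC, at least 1.81-fold higher against a floor of 3 counts. It was not called at adjusted p = 0.0778, and none of the 6 members was (0 of 6, with C1qa, C1qb, C1qc and Ctss under an unadjusted p of 0.05), against 0.91% of all genes. In 6 of 15 alternatives C1qb was called, and with limma C1qa and C1qc were called as well. In Trail.mye mice C1qb stood at 3.5, 5.25, 15.8 and 8.4 on control diet and at 26.3, 26.6, 34.7, 19.6 and 39.5 on DDC, with no overlap. It rose by 1.76 (SE 0.4, 3.38-fold, adjusted p = 0.00365), C1qc by 1.5 (SE 0.4, adjusted p = 0.0189) and Ctss by 1.46 (SE 0.39, adjusted p = 0.0221).

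These 3 of 6 members passed the test in Trail.mye PanCK+ segments, where 2.1% of all genes did. None of the 3 was called with DESeq2 or with all segments thinned to 1 total, and C1qb alone was with TMM factors or without control ROI 026, 027 or 029. The median change of all genes moved from 0.18 with upper-quartile factors to -0.06 with TMM factors. The Ctss controls all stood at 10.5, which is 3, 4, 4 and 5 counts. The C1qb controls held 1 to 6 counts and the C1qc controls 1 to 4. Depth was split by diet, with 35079 to 54834 counts in the control and 172180 to 836971 in the DDC segments. Clec4f did not share the rise. It was at 14, 7.88, 10.5 and 2.1 on control diet and at 5.25, 7, 3.65, 4.73 and 2.1 on DDC (log2 fold change -0.83, SE 0.45, adjusted p = 0.553). Of 16 further general macrophage markers 2 were called higher and 14 were not called in each genotype, with summed Q3-normalized counts of 91 to 254 in the 7 control segments and 235 to 413 in the 9 DDC segments, which overlap. In Trail.mye mice the neutrophil marker sum was 36.8 to 60.4 on control diet and 134 to 339 on DDC (2 of 7 called higher). Against the IBA1+ segments of the same ROIs, 1 of the 7 was called higher and 1 lower in PanCK+ segments. Whether these markers came from neutrophils was not tested. Over both genotypes the hepatocyte sum was 3091 to 8337 and 960 to 3364 (3 of 9 called lower in each), and the fibroblast and stellate cell sum 74 to 145 and 155 to 447 (2 of 10 called higher in Trail.mye and 3 of 10 in WT mice). The part of these cells in the C1q and Ctss results was not tested. A difference of the diet effect between genotypes was called for no member (0 of 6, the lowest unadjusted p being 0.0891 for Clec4f, against 0.114% of all genes).

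No member was called between genotypes in any class. In periportal IBA1+ segments on DDC, Clec4f had a median of 9.7 in Trail.mye and 14.9 in WT mice (log2 fold change -0.84, SE 0.54, adjusted p = 1). The C1q genes were at 0.66, 0.55 and 0.26 (SEs 0.33 to 0.34), and Ctss at 0.31 (0.32). Lyz2, the gene whose locus carries Cre, was at -0.66 on DDC (SE 0.34, unadjusted p = 0.0566, adjusted p = 1) and at -1.35 on control diet (SE 0.74, unadjusted p = 0.0729, adjusted p = 1). The control value rests on WT segments of 5 counts and 1 count, and without the former, ROI 003, it was 0.21. On DDC the 4 WT segments lay at 26.3 to 63 and the 5 Trail.mye segments at 15.5 to 30.3. Thus 0 of 6 members passed on DDC, against 0.019% of all genes, and 0 of 6 on control diet, against 0.199%, with no member under an unadjusted p of 0.05 in either. In PanCK+ segments 0 of 6 passed on control diet, against 0.218%, and 0 of 6 on DDC, against 0.152%, again with none under an unadjusted p of 0.05. The depth of the genotypes differed, with 158220 to 568720 counts in Trail.mye and 20319 to 34302 counts in WT periportal IBA1+ DDC segments.

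Other transcripts of Kupffer cells went with Clec4f. Of 14 further genes on the Kupffer cell list, 9 fell, 1 rose and 4 were not called on DDC in periportal IBA1+ segments of Trail.mye mice. In that comparison 9.38% of all genes were called. The median log2 fold change of the 14 was -1.38, beside 0.07 over all genes. Fcna, the plasma lectin ficolin A, fell by 2.97, Cd5l by 2.4, the haemoglobin scavenger receptor Cd163 by 2.12 and Folr2, a folate receptor, by 2.04 on the log2 scale. Timd4, a phosphatidylserine receptor of long-lived Kupffer cells, fell by 1.2. The gene that rose was Id3 (1.17, adjusted p = 0.00794), a transcriptional regulator. In WT mice 3 of the 14 fell and 11 were not called, against 1.19% of all genes called. The WT median was -1.76, or -1.23 with the 4 genes under the 3-count floor at their bound. The 3 were Fcna (-3.24), the iron exporter Slc40a1 (-2.79) and Cd5l (-2.02). In parenchymal segments 0 of 14 were called by diet, against 0.91% of all genes, with a median of 0.29. On DDC 9 of the 14 were lower in periportal than in parenchymal segments, led by Cd5l (-2.94) and Marco (-2.34), a scavenger receptor. Of all genes 3.24% were called in that comparison.

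**Figure D5:**
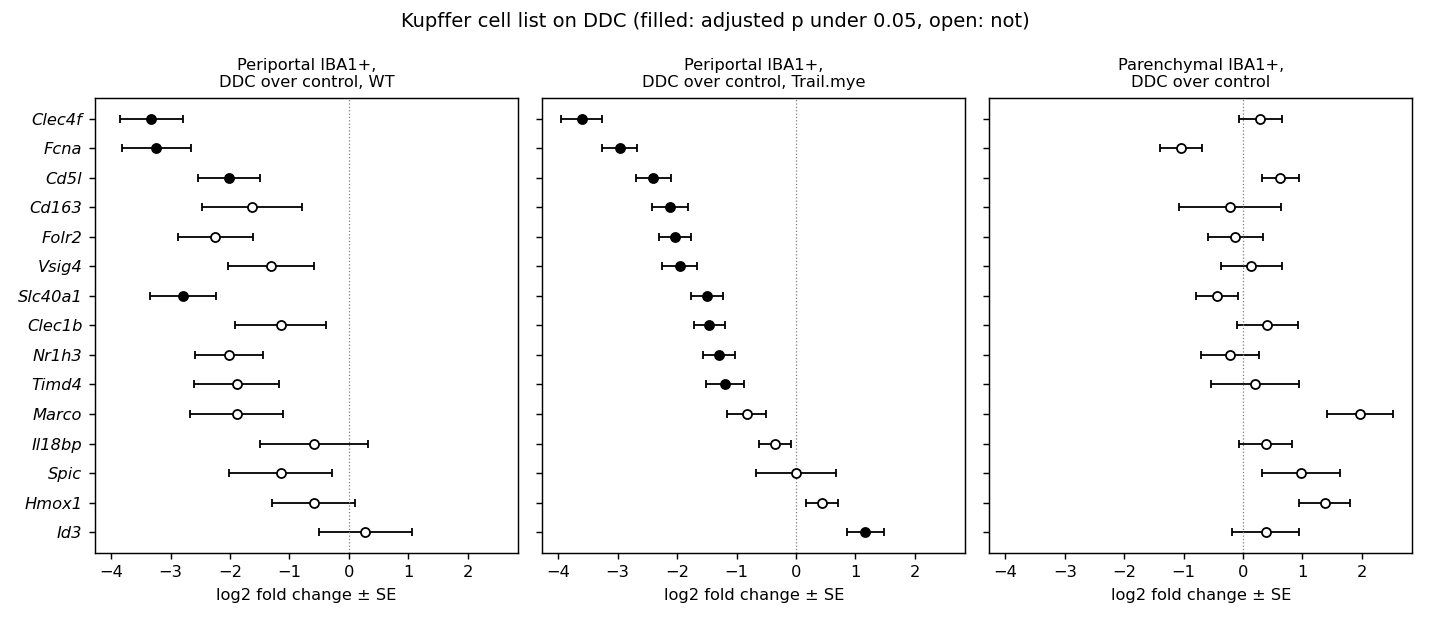
Log2 fold changes with standard errors, DDC over control diet, of Clec4f and 14 further Kupffer cell genes in 3 comparisons of IBA1+ segments, with filled points for an adjusted p under 0.05. In the periportal Trail.mye comparison 10 of the 15 genes are filled and negative and 1, Id3, filled and positive, where 9.38% of all genes were called. In the parenchymal comparison none is filled, where 0.91% of all genes were called.

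None of the 16 further general macrophage genes was called lower on DDC in periportal IBA1+ segments of either genotype. In Trail.mye mice 4 rose and 12 were not called (median 0.62), where 9.38% of all genes were called. The 4 were Itgam, an integrin of myeloid cells (1.46), Mpeg1, a pore-forming protein of macrophages (1.1), and the Fc receptor subunits Fcer1g (0.99) and Fcgr1 (0.86). In WT mice 0 of 16 were called, against 1.19% of all genes, and the median was 0.01. In parenchymal segments 1 of 16 was called lower on DDC (median 0.36), against 0.91% of all genes. On DDC 2 of 16 were higher in periportal than in parenchymal segments (median 0.02), against 3.24% of all genes called. Of 13 genes of monocyte-derived macrophages measured, 8 rose on DDC in periportal IBA1+ segments of Trail.mye mice (median 1.7). Among them were Spp1, a secreted phosphoprotein that bile duct cells also make (4.18), Trem2, a lipid receptor (3.34), and Gpnmb, a lysosomal glycoprotein (3.04). In WT mice 1 of 13 rose, Spp1 (at least 14.9-fold against the floor of 3 counts), and the median was 1.83, or 0.78 with the 10 genes under the floor at their bound. In parenchymal segments Mmp12, a macrophage metalloelastase (3.95), Spp1 (3.49) and Lgals3 (1.82) rose on DDC. Mmp12 was lower in periportal than in parenchymal segments on DDC (-1.22, adjusted p = 0.00533), while Cx3cr1, a chemokine receptor, was at least 2.33-fold higher, and also higher were S100a4, a calcium-binding protein (log2 fold change 2.68), and Spp1 (2.15).

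Among the other genes of the classical complement pathway, 24 were measured. On DDC in periportal IBA1+ segments of Trail.mye mice 4 rose and 4 fell (median -0.45), where 9.38% of all genes were called. The 4 that rose were the receptors C3ar1 (1.67) and C5ar1 (0.97), Cd93 (1.38), a transmembrane protein of endothelial and myeloid cells, and the terminal component C7 (1.3). The 4 that fell were the terminal components C8g (-2.18) and C6 (-0.89), the protease Cfi, factor I (-1.3), and the membrane regulator Cd55 (-1.09). In WT mice C9 and C8b, terminal components made by hepatocytes, were at least 4.73-fold and 2.91-fold lower. None of the 24 was called by diet in parenchymal segments, where 0.91% of all genes were. Of 12 cathepsins and cystatins besides Ctss, Cstb (1.36), Ctsd (1.23) and Ctsk (1.15) rose in Trail.mye periportal segments, and Cstb (2.02), Ctsd (1.4) and Ctsl (1.22) in parenchymal ones. In WT periportal segments 0 of 12 were called, against 1.19% of all genes.

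Over the 22 IBA1+ segments the 3 C1q genes varied less against one another than Clec4f did against them, whose ratio ran from 0.024 to 1.24. The ratio of C1qa to C1qb, which depends on the probes, ranged from 0.5 to 1.13 over the segments and that of C1qa to C1qc from 0.458 to 1.38, and Pearson's r of their log2 Q3-normalized counts was 0.8 for C1qa with C1qb, 0.52 for C1qa with C1qc and 0.47 for C1qb with C1qc. C1qa, C1qb and C1qc correlated with Clec4f at 0.27, 0.02 and 0.45 and with Ctss at 0.31, 0.55 and 0.07. By r, then, C1qb was no closer to C1qc than to Ctss, and C1qc about as close to Clec4f as to C1qb. Clec4f correlated with Lyz2 at -0.72 and with Ctss at -0.64, and Ctss with Lyz2 at 0.72. The segments can share animals and fall into diet and location groups, so these r are descriptions with no p. Among 2398 genes with a mean of 10 counts or more, those most like the mean of the C1q genes were Lgmn, the lysosomal protease legumain (0.8), Unc93b1, a chaperone of endosomal Toll-like receptors (0.72), Wdr26 (0.7), Lipa, lysosomal acid lipase (0.7), and Erp29 (0.69). Those most like Clec4f were Cd5l (0.95), Fcna (0.92) and then Plg (0.91), Itih4 (0.9) and Pygl (0.89). The last 3 are transcripts of hepatocytes, whose markers fell in the same segments. Their part in the Clec4f pattern was not tested.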

How the data were processed

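Barcoded probes of the GeoMx mouse Whole Transcriptome Atlas were read out by sequencing after 18 cycles of PCR, and the authors filtered segments and targets on the limit of quantification. The table the authors deposited was treated as holding expected counts, since 3 of its 10547 genes have values that are not whole, and was rounded. The authors' Q3-normalized table holds signal, the same counts times 1 factor per segment. Genome build mm10 and bcl2fastq are named in the submitters' processing notes. Groups came from the sample titles.

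Counts were tested with edgeR 4.0.16 (R 4.3.3) by the quasi-likelihood test with upper-quartile factors, on all 10547 genes with no filter, with Benjamini-Hochberg adjustment over all genes and a threshold of 0.05. PanCK+ and IBA1+ segments of 1 ROI were compared with the ROI as a block, since the titles give both the same ROI number. Deviations of the paired segments correlated at -0.02 to 0.53 over the 15 ROIs. Other fits held the 4 genotype and diet groups of a class, or all 22 IBA1+ segments. Group floors of 3 counts per segment gave bounds. Alternatives were TMM factors, DESeq2 1.42.0, limma 3.58.1 on log2(Q3-normalized count + 1) or + 0.5, a filter on low counts, counts of 1 set to 0, thinning, fits of the compared groups only, no replicate block, and leaving out each segment. The scripts were tested on simulated data. The named genes were the 6 members, up to 4 called genes of a list with the largest changes, defining genes of a list, and the 5 genes most like Clec4f and most like C1q. Id3, Marco, Mmp12 by location, Apoc3 and the complement genes past the first 4 were named after their values were seen. The members and lists were chosen with earlier results of these data known. Standard errors come from the quasi-likelihood test and include the spread between segments. Segments can share an animal, so they do not stand for the spread between animals. Floors cover counting error only.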

Additional observations from a re-analysis of the deposited data

Results flagged for a closer look

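In the periportal IBA1+ segments of Trail.mye mice on DDC, Ctss stood at 88.8 Q3-normalized counts in ROI 035, far from the other 4 segments at 163 to 189. ROI 035 is the ROI whose lowest count was 14 in this segment. In the WT group on DDC, Lyz2 stood at 63 in ROI 011, apart from the other 3 segments at 26.3 to 31.5, and Clec4f was at 1 count there. These were 2 of 35 combinations of a gene and a segment group examined for a segment far from the rest, and chance flags about 1 in 20 of them. Combinations from the same segments are not independent.

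The effect of location on Clec4f differed between the diets by -3.75 on the log2 scale, tested directly (SE 0.53, adjusted p = 1.09e-05 in edgeR's quasi-likelihood test).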

How the results depend on the processing

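The fall of Clec4f on DDC in periportal IBA1+ segments was called in 14 of 14 alternatives in WT (log2 fold change -3.82 to -2.77) and in 17 of 17 in Trail.mye mice (-3.83 to -3.43), its lower periportal level on DDC in 21 of 21 and the difference of location between diets in 28 of 28. Without the replicate block, 6 members were still called between PanCK+ and IBA1+ segments, where the count over all genes went from 1881 to 1670. In WT PanCK+ segments no member was called by diet as reported, but 1 was with TMM factors, with the filter on low counts, with counts of 1 set to 0 and in a fit of the compared groups only, and 3 were with limma at either pseudocount. In Trail.mye PanCK+ segments, where 3 were called, 1 was with TMM factors, 0 with DESeq2 and 0 after thinning, and 1 to 3 when a segment was left out. After thinning, 1 member was called by diet in periportal IBA1+ segments of Trail.mye mice, in place of 3, and Lyz2 was not (adjusted p = 0.41). The filter on low counts called 2 members between genotypes in parenchymal segments, in place of 0. Of 1693 member results under alternatives, 293 stayed called, 30 calls were lost and 17 gained, no called value changed sign, and 99 values not called under either setting did, so the direction of uncalled values is not firm. The cause of these changes was not tested.

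Counts over all genes also moved. By diet in periportal IBA1+ segments they ran from 74 to 432 in WT (125 as reported, 30 to 134 with a segment left out) and from 119 to 1172 in Trail.mye mice (989, 755 to 1155). By location on DDC they ran from 139 to 701 (342, 134 to 355), for the difference between diets from 3 to 60 (3, 2 to 6), between PanCK+ and IBA1+ from 417 to 1886 (1881, 1606 to 1881), in PanCK+ by diet from 72 to 404 in WT (96, 58 to 90) and from 70 to 299 in Trail.mye mice (221, 114 to 402), and by diet in parenchymal segments from 0 to 208 (96, 58 to 125). In Trail.mye PanCK+ segments 68.3% of genes called by diet were higher on DDC as reported, against 35.3% with TMM factors.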
